A study of Mus musculus with 10 samples.

Results

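The collagen processing and crosslinking enzymes considered here are 10 genes given by name: Serpinh1, P4ha1, P4ha2, Plod1, Plod2, Plod3, Lox, Loxl1, Loxl2 and Bmp1. They were 10 of the 29972 mouse genes for which TPM, transcript abundance as a length-adjusted share of the library, could be summed, and 9 of the 14765 genes tested. Lox was too low in all libraries to be tested. RNA-seq was done on 10 libraries from FACS-purified liver cells. The HpC group is 4 libraries of hepatocyte-derived peripheral cholangiocytes from Alb-Cre+/-;Rbpjf/f;Hnf6f/f mice, aged P124, P151, P144 and P139 (postnatal days). The pC group is 3 libraries of peripheral cholangiocytes from Rbpjf/f;Hnf6f/f mice with no Cre, aged P151, P119 and P142. The H group is 3 libraries of hepatocytes from Alb-Cre+/-;Rbpjf/f;Hnf6f/f mice, aged P134, P139 and P139. The floxed Rbpj and Hnf6 (Onecut1) alleles were thus present in every mouse. The Alb-Cre transgene, whose albumin promoter is active in the hepatocyte lineage and its fetal precursors, was present in HpC and H and absent from pC. The mice were of mixed C57BL/6, FVB and CD1 background. HpC and pC were sorted from the nonparenchymal fraction after enzymatic digestion of the tissue, whereas H were sorted after perfusion, so the comparisons with H also differ in preparation. The ages differ within HpC and within pC, so the libraries of each of these groups came from different mice. H2, H3 and HpC4 share an age and a genotype, and nothing states that they came from separate animals. The spread between H2 and H3 may therefore be technical only. The fit shares its estimate of spread over all 10 libraries, so this enters the p-values of every comparison.

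Collagen chains are modified inside the endoplasmic reticulum before they fold. Prolyl 4-hydroxylases stabilise the triple helix, lysyl hydroxylases prepare lysines for sugar attachment and crosslinking, and the chaperone Serpinh1 (HSP47) holds the folded procollagen until export. Outside the cell Bmp1 removes the C-propeptide, and the copper-dependent lysyl oxidases Lox, Loxl1 and Loxl2 oxidise lysines so that neighbouring molecules can crosslink. In liver these enzymes are best known from stellate cells and portal fibroblasts during fibrosis, and biliary epithelium also deposits basement membrane collagen.

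The level of a gene is given as scaled TPM, which is the deposited TPM divided by a scaling factor per library. A difference is the group contrast of log2(scaled TPM + 1) with its standard error (SE) from limma, and a gene was called at a Benjamini-Hochberg adjusted p under 0.05 over all tested genes. The files hold no read numbers, so sequencing depth and counting error are unknown. The factors were lowest in H (0.499 to 0.585), 1.53 to 1.59 in pC and 0.668 to 1.61 in HpC, with HpC1 at the low end. Without scaling, the median difference of all genes was -0.36 between HpC and pC, 0.87 between HpC and H and 1.20 between pC and H. With scaling, these medians were -0.01, 0.08 and 0.11. Pancreatic acinar genes held 19.7% of the TPM of HpC1 and 0.195% of that of pC3, and squamous epithelial genes held 4.62% of HpC2. Markers separated the cholangiocyte groups from H. Epcam was at 101 to 179 scaled TPM in HpC, 143 to 155 in pC and 0.0444 to 0.433 in H. All 11 hepatocyte markers tested were lower in HpC and in pC than in H, with none called between HpC and pC. Their sum was at 2924 to 5590 in HpC, 991 to 2563 in pC and 75627 to 87760 in H. The 14 cholangiocyte markers summed to 2193 to 3098 in HpC, 5977 to 6089 in pC and 209 to 217 in H. HpC and pC did not overlap in either sum. Of the cholangiocyte markers 13 were higher and 1 lower in HpC than in H. Between HpC and pC, 3 of the 14 cholangiocyte markers were lower in HpC (Spp1 and Prom1 among them) and none higher, beside 2.55% and 1.99% of all tested genes. The other 11 were not called. The median difference of the 14 was -0.49, and that of Spp1 was -2.21. Leaving out any 1 library but HpC4 or H2 ended the Prom1 call. Of the floxed genes, Onecut1 was at 19.3 to 46.3 in HpC, 63.0 to 81.9 in pC and 46.0 to 109 in H, and Rbpj at 4.09 to 6.24, 5.51 to 6.82 and 1.20 to 1.59; these sums over whole transcripts do not isolate the floxed exons and so do not check the deletion.

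Sequences from the genome place the variable parts of the genes described below. The first is the cassette exon of Plod2, the 63-base coding exon 14 of transcript ENSMUST00000160359 (GRCm38, chr9:92601985-92602047, plus strand), whose share of the gene's transcripts varied between libraries. The next are the alternative coding exons 9 of the P4ha1 transcripts ENSMUST00000009789 (chr10:59354340-59354410, the upstream exon) and ENSMUST00000105466 (chr10:59355350-59355420, the downstream exon), both 71 bases on the plus strand. Capitals mark the exon, and lower case the 10 transcript bases of the neighbouring exons on each side.
Plod2 cassette exon: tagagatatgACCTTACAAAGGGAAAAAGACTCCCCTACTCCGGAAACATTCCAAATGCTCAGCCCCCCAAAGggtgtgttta
P4ha1 upstream exon: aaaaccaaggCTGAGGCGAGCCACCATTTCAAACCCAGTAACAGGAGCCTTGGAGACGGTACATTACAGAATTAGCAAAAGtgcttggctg
P4ha1 downstream exon: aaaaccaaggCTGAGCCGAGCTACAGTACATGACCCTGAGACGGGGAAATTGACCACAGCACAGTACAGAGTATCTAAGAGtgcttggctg
The P4ha1 exons were identical at 42 of 71 positions (59.2%), and the Plod2 exon, at 63 bases, keeps the reading frame.

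Between HpC and pC, the hepatocyte-derived and the ordinary peripheral cholangiocytes, 1 of the 9 tested members was higher in HpC, none was lower and 8 were not called. The background is that 4.54% of all tested genes were called in this comparison, 1.99% of them higher and 2.55% lower in HpC. The member that rose was Loxl2, and its relative Loxl1 was the only other member whose HpC and pC libraries did not overlap. That is 2 of the 9 tested members with every HpC library above every pC library, against 6.78% of all tested genes; no member had every HpC library below every pC library, against 9.72%. Loxl1 overlapped on the deposited TPM, at 1.11 to 2.84 in HpC and 1.09 to 1.69 in pC. The median difference was 0.13 over the 9 members and -0.01 over all tested genes. Against hepatocytes the members split: 5 of 9 were higher and 2 lower in HpC than in H, where 59.9% of all genes were called (30.7% higher, 29.2% lower). In pC the counts against H were also 5 higher and 2 lower, where 59.6% of all genes were called (31.1% higher, 28.6% lower). The HpC and pC contrasts with H share the H libraries. The median member difference was 0.89 for HpC and 0.57 for pC.

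**Figure D1:**
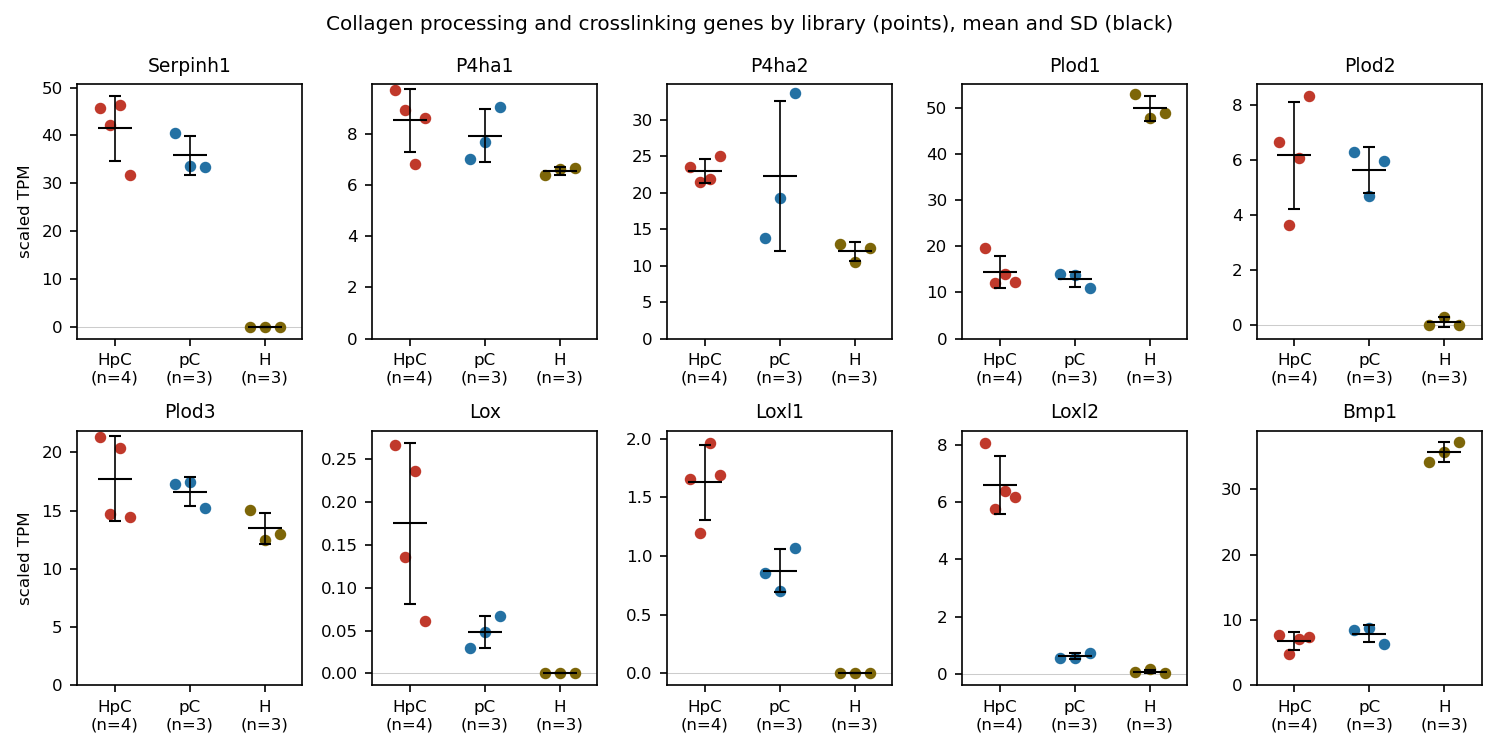
Level of each of the 10 genes in scaled TPM (vertical axes, linear, each with its own range) in 4 HpC, 3 pC and 3 H libraries. Points are libraries, black lines are the mean and SD. Serpinh1 and Plod2 are near 0 in H, Plod1 and Bmp1 are highest in H, and Loxl2 is at 5.75 to 8.08 in HpC and at 0.540 to 0.724 in pC.

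**Figure D2:**
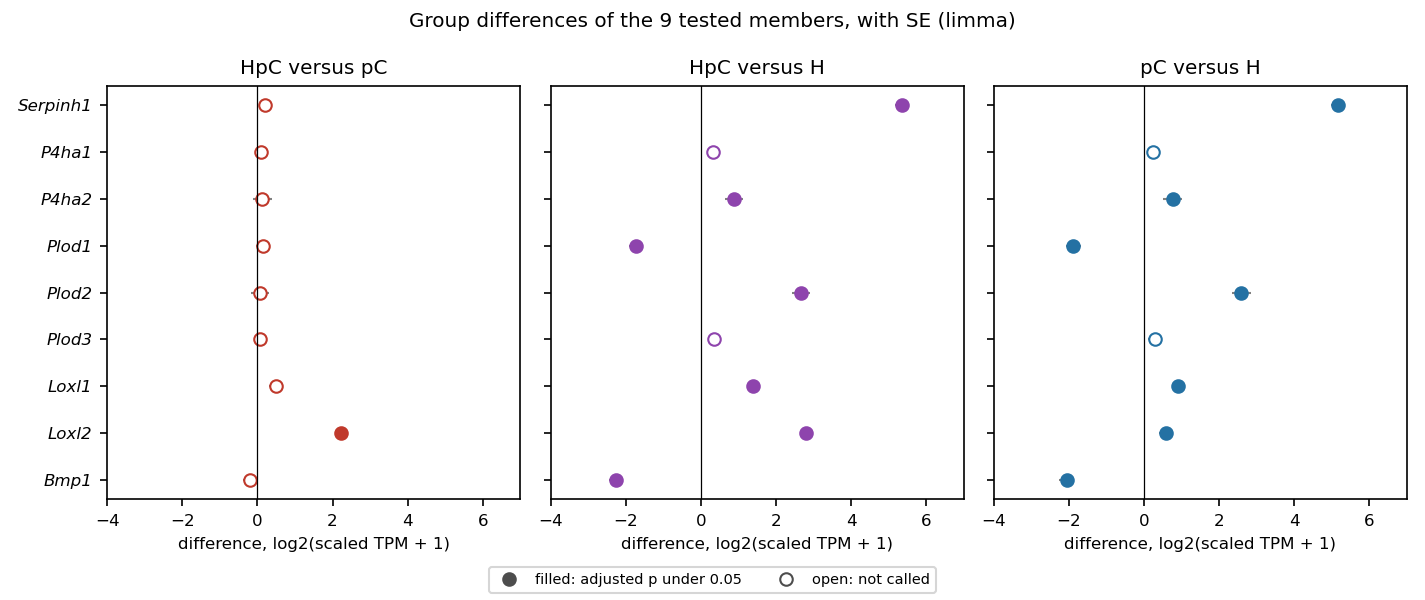
Differences of the 9 tested genes in log2(scaled TPM + 1), with the SE as bars, for HpC versus pC, HpC versus H and pC versus H. Filled points have an adjusted p under 0.05. The left panel has 1 filled point, Loxl2 at 2.24, and the other panels have 7 each.

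Serpinh1 (ENSMUSG00000070436, GRCm38 chr7:99345376-99353239, minus strand) encodes HSP47, a collagen-specific chaperone of the endoplasmic reticulum. Values are listed in library order here and below. Its level in HpC was 45.7, 42.2, 46.3 and 31.7 scaled TPM, that in pC 40.6, 33.6 and 33.4, and that in H 0.0396, 0.0604 and 0. The cholangiocyte groups overlapped and every one of their libraries lay far above every hepatocyte library. HpC was 5.35 ± 0.16 (SE) above H with an adjusted p of 2.69e-08, and pC was 5.15 ± 0.17 above H with an adjusted p of 5.30e-08. HpC and pC differed by 0.19 ± 0.16, with an adjusted p of 0.582. Serpinh1 had the highest level of the members in 6 of the 7 cholangiocyte libraries, where it made up 27.4% to 37.3% of the summed TPM of the 10 genes. In H it made up at most 0.0531% of that sum. In a bulk library a lower share of a cell type and less RNA per cell cannot be told apart, which holds for every level below.

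The RefSeq window of Serpinh1 is shown because this gene has the largest difference from hepatocytes, and that of Plod1 because it differs in the other direction. Each is the 250 bases before the annotated start (GRCm38.p6, minus strand, Serpinh1 chr7:99353240-99353489 and Plod1 chr4:147936777-147937026). Capitals mark matches on either strand to ACGTG (the core of a hypoxia response element), to the heat shock pair GAANNTTC or TTCNNGAA, and to GGGCGG (a GC box). ACGTG and its reverse complement CACGT mark the same motif, as do GGGCGG and CCGCCC.
Serpinh1: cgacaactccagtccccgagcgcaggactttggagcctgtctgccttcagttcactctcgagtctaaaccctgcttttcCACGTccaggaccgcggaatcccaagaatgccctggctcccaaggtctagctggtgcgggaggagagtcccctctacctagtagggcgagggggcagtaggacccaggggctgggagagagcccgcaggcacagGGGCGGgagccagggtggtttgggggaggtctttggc
Plod1: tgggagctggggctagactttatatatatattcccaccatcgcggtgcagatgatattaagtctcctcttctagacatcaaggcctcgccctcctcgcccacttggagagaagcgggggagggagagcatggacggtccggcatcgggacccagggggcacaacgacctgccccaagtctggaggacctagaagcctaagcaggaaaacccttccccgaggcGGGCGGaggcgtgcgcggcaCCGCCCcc
RefSeq windows, which also hold the 50 bases after the start, were found for 5 members (Serpinh1, P4ha1, P4ha2, Plod1 and Plod3). ACGTG was present in 4 of these 5 windows, all but that of Plod1, and in 19.6% of the 32851 windows in the table. GGGCGG was present in all but that of Plod3, against 35.7% of all windows. CAGAC, a Smad-binding core that is not capitalised above, was present in the windows of Serpinh1 and Plod1, against 49.6% of all windows. The heat shock pair was found in the windows of P4ha2 and Plod1, against 15.1% of all windows. The match in Plod1 lies in the 50 bases not printed. These matches describe the letters of the windows only.

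P4ha1 and P4ha2 encode catalytic alpha subunits of collagen prolyl 4-hydroxylase, the enzyme that makes 4-hydroxyproline. P4ha1 (ENSMUSG00000019916, chr10:59323296-59373304, plus strand) was at 9.74, 8.95, 6.83 and 8.65 scaled TPM in HpC. It was at 7.04, 7.70 and 9.07 in pC and at 6.39, 6.65 and 6.67 in H. HpC and pC overlapped, and all 7 of their libraries lay above all 3 of H. None of the contrasts was called: HpC against pC was 0.09 ± 0.15 (adjusted p 0.800), HpC against H 0.32 ± 0.15 (adjusted p 0.0885) and pC against H 0.23 ± 0.16 (adjusted p 0.239). On the deposited TPM, without scaling, P4ha1 was called higher in HpC than in H at 1.28 and in pC than in H at 1.57. The medians of all genes were then 0.87 and 1.20. HpC against H was also called with median of ratios scaling (0.44, adjusted p 0.0264) and with only the 2 groups compared (0.42, adjusted p 0.0454). Without HpC3 it was called at 0.42 (adjusted p 0.0378). Transcript ENSMUST00000009789, with the upstream exon printed above, held 5.07% to 15.6% of P4ha1 in HpC, 8.68% to 13.8% in pC and 9.52% to 19.1% in H, and these ranges overlapped. Which of the exons the remaining transcript, ENSMUST00000092512, holds was not examined, so these are shares of a transcript and not of the exon.

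P4ha2 (ENSMUSG00000018906, chr11:54100095-54131665, plus strand) was at 23.5, 21.5, 21.9 and 25.0 scaled TPM in HpC, a narrow range. In pC it was at 13.8, 19.3 and 33.7, and in H at 13.0, 10.5 and 12.5. Every cholangiocyte library lay above every hepatocyte library, while pC spanned the whole HpC range. The difference was 0.89 ± 0.25 (adjusted p 0.0104) for HpC against H and 0.76 ± 0.26 (adjusted p 0.0308) for pC against H. HpC differed from pC by 0.13 ± 0.25 (adjusted p 0.824). Both calls against H ended when only protein-coding transcripts were summed, at 0.17 (adjusted p 0.625) and 0.13 (adjusted p 0.730). The pC call also ended without pC2, without pC3 or without any 1 H library, with adjusted p from 0.0518 to 0.0988. Protein-coding transcripts held 20.5% to 50.4% of P4ha2 in HpC, 23.5% to 61.8% in pC and 44.4% to 59.7% in H. The short processed transcript ENSMUST00000155299 alone held 27.1 deposited TPM in pC3, the pC library with the highest sum.

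The 3 lysyl hydroxylases each had a different pattern. Plod1 (ENSMUSG00000019055, chr4:147909753-147936767, minus strand), which hydroxylates lysines of the triple helix, was a gene with its highest level in hepatocytes. It was at 53.0, 48.0 and 48.9 scaled TPM in H, against 19.6, 12.1, 14.1 and 12.3 in HpC and 13.9, 13.7 and 10.9 in pC. H did not overlap either cholangiocyte group, and HpC overlapped pC. Plod1 fell by 1.74 ± 0.18 in HpC relative to H (adjusted p 1.54e-05) and by 1.88 ± 0.19 in pC relative to H (adjusted p 1.45e-05), and HpC was 0.15 ± 0.18 from pC (adjusted p 0.714). On the deposited TPM the differences from H were -0.64 (adjusted p 0.0593) and -0.39 (adjusted p 0.252), below medians of all genes of 0.87 and 1.20.

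Plod2 (ENSMUSG00000032374, chr9:92542223-92608428, plus strand) hydroxylates lysines of the telopeptides, which sets the type of crosslink formed. The HpC libraries were at 6.66, 3.66, 6.07 and 8.34 scaled TPM, those of pC at 6.31, 4.69 and 5.96, and those of H at 0.0237, 0.314 and 0. The pC libraries lay within the HpC range and all 7 were above H. Plod2 was 2.66 ± 0.24 higher in HpC than in H (adjusted p 5.65e-06) and 2.58 ± 0.25 higher in pC than in H (adjusted p 1.17e-05). The HpC and pC groups differed by 0.08 ± 0.24 (adjusted p 0.900). The gene sum was not called between HpC and pC, and the estimated isoforms are given beside it. Transcripts with the 63-base exon printed above made up 62.9%, 46.9%, 61.7% and 23.3% of the full-length Plod2 transcripts in HpC. In pC the share was 18.6%, 0% and 25.1%. The mean was 48.7% ± 18.4 (SD, n = 4) in HpC and 14.6% ± 13.0 (SD, n = 3) in pC. HpC1 to HpC3 lay above all pC libraries and HpC4 lay within the pC range. The groups therefore overlapped through HpC4, and no test was made of these shares, which are estimates from single-end reads of 50 bases with unknown counts.

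**Figure D3:**
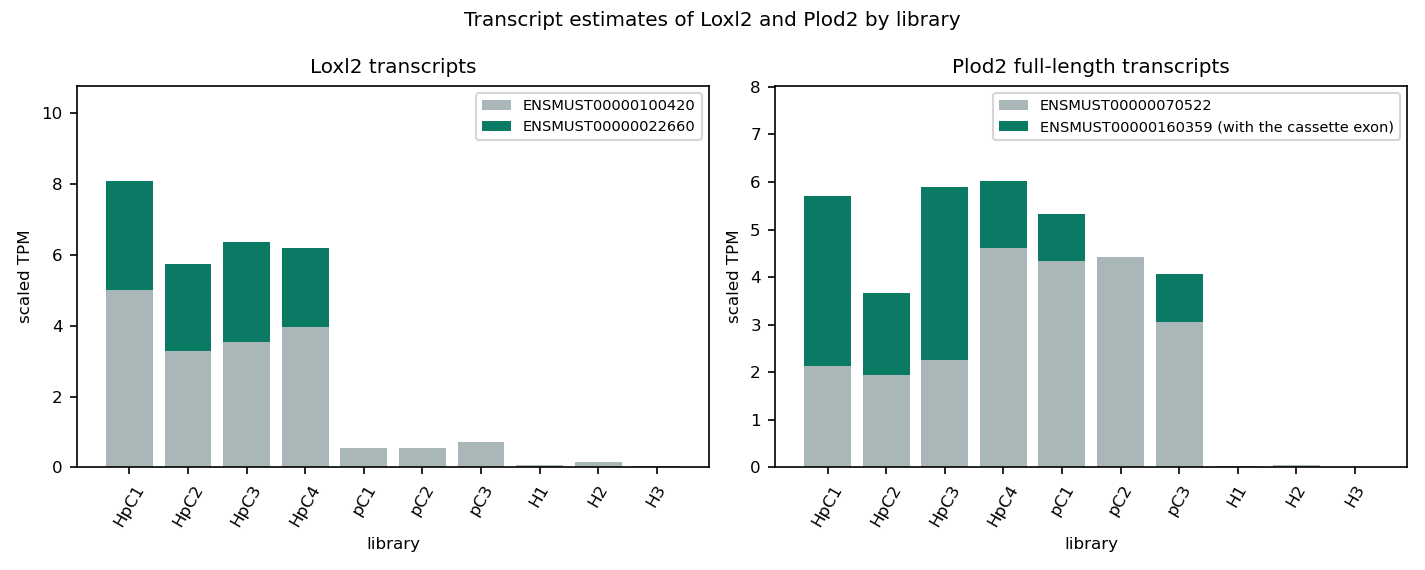
Estimated scaled TPM (vertical axes) of the transcripts of Loxl2 (left) and the full-length transcripts of Plod2 (right), stacked, in each of the 10 libraries. The dark part is ENSMUST00000022660 on the left and ENSMUST00000160359, with the 63-base exon, on the right. The first is above 0 in the 4 HpC libraries and listed at 0 in pC and H, where the whole gene is low. The second is listed at 0 in pC2.

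Plod3 (ENSMUSG00000004846, chr5:136987019-136996648, plus strand) hydroxylates lysines and also adds sugars to them, and it was the most even of the lysyl hydroxylases. It was at 21.3, 14.7, 20.4 and 14.5 scaled TPM in HpC, 17.3, 17.4 and 15.2 in pC and 15.0, 12.4 and 13.0 in H. H1 lay inside the HpC range and just below the lowest pC library. None of the contrasts was called: 0.07 ± 0.17 between HpC and pC (adjusted p 0.868), 0.36 ± 0.17 between HpC and H (adjusted p 0.0954) and 0.29 ± 0.18 between pC and H (adjusted p 0.199). On the deposited TPM Plod3 was called higher than in H, at 1.39 for HpC and 1.73 for pC, and with only protein-coding transcripts at 0.37 (adjusted p 0.0470) and 0.52 (adjusted p 0.0139). The HpC contrast with H was also called without HpC2 or HpC4 (0.54 and 0.45). It was called as well with median of ratios scaling (0.48, adjusted p 0.0394), quantile normalisation (0.59, adjusted p 0.0208) and library weights (0.49, adjusted p 0.0108). In all it was called in 7 of 21 alternatives. Protein-coding transcripts held 44.3% to 62.3% of Plod3 over all 10 libraries.

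Bmp1 (ENSMUSG00000022098, chr14:70474558-70520234, minus strand), the procollagen C-proteinase, was, like Plod1, highest in hepatocytes. It was at 34.2, 35.7 and 37.3 scaled TPM in H, at 7.66, 4.75, 7.13 and 7.37 in HpC and at 8.49, 8.72 and 6.33 in pC. The hepatocyte libraries stood apart, and HpC and pC overlapped. Bmp1 fell by 2.27 ± 0.18 in HpC relative to H (adjusted p 2.38e-06) and by 2.06 ± 0.19 in pC relative to H (adjusted p 7.66e-06). HpC and pC differed by -0.20 ± 0.18 (adjusted p 0.606). On the deposited TPM the HpC call held at -1.19 (adjusted p 0.00628) and the pC call ended at -0.60 (adjusted p 0.130). Plod1 and Bmp1 together made up 71.7% to 73.5% of the members' summed TPM in H and 14.7% to 21.1% in the cholangiocyte libraries. With scaling, the members' sum was at 115 to 144.1 in HpC, 106 to 116.5 in pC and 114 to 122 in H. On the deposited TPM it was at 96.3 to 190.1 in HpC, 166 to 185 in pC and 56.8 to 71.1 in H, so that H lay below every cholangiocyte library.

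Loxl2 (ENSMUSG00000034205, chr14:69609068-69695834, plus strand), a lysyl oxidase with scavenger receptor domains that acts on collagen IV among other substrates, was the member that separated the cholangiocyte groups. The HpC libraries were at 8.08, 5.75, 6.37 and 6.19 scaled TPM. Those of pC were at 0.549, 0.540 and 0.724, and those of H at 0.0536, 0.153 and 0.0240. Neither pair of groups overlapped, and the order HpC, pC, H held for every library. The HpC mean of 6.60 ± 1.02 (SD, n = 4) was 10.9 times the pC mean of 0.604 ± 0.104 (SD, n = 3). On the deposited TPM the HpC mean was 8.27 times the pC mean. The pC libraries were then at 0.838, 0.844 and 1.15, near the filter of 1 TPM, so the ratio rests on a low level. With scaling, the difference between HpC and pC was 2.24 ± 0.16 with an adjusted p of 0.000104. Loxl2 was called in all 21 alternative settings run, at 2.15 to 3.25 with adjusted p up to 0.00706. These included the fit without HpC1 and HpC2 together. HpC was 2.81 ± 0.16 above H (adjusted p 2.78e-07). The smaller difference between pC and H was 0.57 ± 0.17 (adjusted p 0.0130). It was -0.20 (adjusted p 0.322) under quantile normalisation and lost its call without pC3 (adjusted p 0.0504).

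The annotated Loxl2 transcripts differ in their first exon and in the length of the 3′ end. Transcript ENSMUST00000100420 was at 3.35, 3.79, 5.14 and 6.39 deposited TPM in HpC, at 0.838, 0.844 and 1.15 in pC and at 0.0313, 0.0762 and 0.0121 in H. Transcript ENSMUST00000022660, which has the longer 3′ end, was at 2.05, 2.83, 4.09 and 3.59 in HpC and was listed at 0 in all pC and H libraries. It made up 36.0% to 44.3% of the gene in HpC. ENSMUST00000100420 by itself was higher in each HpC library than in each pC library.

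Loxl1 (ENSMUSG00000032334, chr9:58287738-58313186, minus strand) is known for crosslinking elastin. It was at 1.66, 1.19, 1.97 and 1.69 scaled TPM in HpC, at 0.858, 0.700 and 1.06 in pC, and was listed at 0 in all H libraries. The lowest HpC library, HpC2, lay above the highest pC library, pC3. The difference between HpC and pC was 0.48 ± 0.16 and was not called (adjusted p 0.143). It was called at 0.64 with library weights (adjusted p 0.0134) and in no other setting. Relative to H the differences were 1.38 ± 0.16 in HpC (adjusted p 3.86e-05) and 0.90 ± 0.17 in pC (adjusted p 0.00122), and the pC call ended under quantile normalisation at 0.37 (adjusted p 0.0723).

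Lox (ENSMUSG00000024529), the founding lysyl oxidase of collagen and elastin, was at 0.267, 0.136, 0.236 and 0.0614 scaled TPM in HpC. In pC its values were 0.0291, 0.0487 and 0.0672, and in H it was listed at 0. HpC4 lay below pC3, so the groups overlapped. No test was made at these levels. Among Loxl2, Loxl1 and Lox the order of levels within every HpC library was Loxl2, Loxl1, Lox, and in every pC library Loxl1, Loxl2, Lox.

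The wider pathway was read from a list of 28 other collagen processing genes, of which 23 were tested. Between HpC and pC 3 were higher in HpC, none lower and 20 not called, with a median difference of 0.49. Of all tested genes 1.99% were higher and 2.55% lower in this comparison. Colgalt1, which attaches galactose to hydroxylysine, was at 15.2 to 18.1 scaled TPM in HpC and 6.74 to 9.67 in pC, a difference of 1.01 ± 0.15 (adjusted p 0.00527). Its HpC libraries lay just below those of H (18.2 to 22.5). Pcolce, the enhancer of procollagen C-proteinase, was at 9.77 to 12.7 in HpC and 4.60 to 5.77 in pC, a difference of 0.93 ± 0.18 (adjusted p 0.0165). Crtap, part of the prolyl 3-hydroxylase complex, was at 8.36 to 11.1 in HpC and 4.22 to 5.17 in pC, a difference of 0.94 ± 0.22 (adjusted p 0.0382). None of these 3 genes overlapped between HpC and pC. Their calls were less stable than that of Loxl2: on the deposited TPM all 3 ended, with adjusted p from 0.289 to 0.313. The Pcolce call also ended without HpC3, pC1 or pC2, and that of Crtap held in 9 of 21 alternatives, ending without any 1 of HpC1, HpC2, HpC3, pC1, pC2, pC3 or H2 (adjusted p up to 0.139 when 1 library was left out).

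Several genes of this list missed the threshold between HpC and pC. Creb3l1, a transcription factor of the secretory pathway that acts on collagen genes, was at 7.50 to 14.9 in HpC and 16.2 to 22.5 in pC, a difference of -0.88 ± 0.22 (adjusted p 0.0501). Pxdn, the peroxidase that forms sulfilimine crosslinks in collagen IV, was at 4.97 to 10.3 in HpC and 2.63 to 5.28 in pC, a difference of 0.97 ± 0.26 (adjusted p 0.0715). Creb3l1 was called without HpC1, and Pxdn without HpC2 (1.22, adjusted p 0.0106). The third catalytic prolyl hydroxylase subunit, P4ha3, differed by 0.55 ± 0.25 (adjusted p 0.291), and P3h1, a prolyl 3-hydroxylase, by 0.90 ± 0.27 (adjusted p 0.104).

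Against hepatocytes, 14 of the 23 were higher and 5 lower in HpC (median 1.48), and 14 were higher and 7 lower in pC (median 0.87). Of all tested genes 30.7% were higher and 29.2% lower in HpC, and 31.1% higher and 28.6% lower in pC. The 14 higher genes in each comparison were P4ha3, P3h2, P3h3, P3h4, Crtap, Fkbp10, Adamts2, Pcolce, Loxl3, Loxl4, Pxdn, Tgm2, Sparc and Creb3l1. Of these, Tgm2 lost its HpC call without any 1 of HpC1, HpC3, HpC4, H1, H2 or H3, Crtap its pC call without HpC3, any 1 pC library, H1 or H2, and Adamts2 its pC call without pC2, pC3, H1 or H2. Fkbp10, a partner of Plod2, was at 5.09 to 7.90 scaled TPM in HpC and 4.91 to 6.08 in pC and was listed at 0 in H. P3h4, which works with Plod1 in the endoplasmic reticulum, was at 15.7 to 26.6 in HpC and 12.8 to 16.6 in pC and was also listed at 0 in H. P3h4 was thus listed at 0 in the libraries where Plod1 was highest. Sparc, a collagen-binding matrix protein, had the largest difference, 5.99 ± 0.26 for HpC (adjusted p 8.61e-08) and 5.36 ± 0.28 for pC (adjusted p 1.94e-07). Loxl3 was at 0.583 to 2.16 in HpC and 1.40 to 3.34 in pC, and Loxl4 at 1.32 to 3.00 and 1.41 to 2.00; both were at or below 0.0644 in H. The procollagen N-proteinase Adamts2 was at 10.9 to 52.6 in HpC and 6.45 to 18.4 in pC, and in H at 0.404, 0.351 and 8.77, H3 being the high library.

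The genes lower in both cholangiocyte groups than in H were P4hb, P3h1, Ppib, Mia2 and Mia3, joined in pC by Colgalt1 and Tmem38b, an endoplasmic reticulum cation channel. P4hb, the disulfide isomerase that is the beta subunit of prolyl 4-hydroxylase, was at 451 to 713 scaled TPM in H, 101 to 106 in pC and 100.1 to 418 in HpC, highest in HpC1. It fell by 1.64 ± 0.42 in HpC (adjusted p 0.00654) and by 2.50 ± 0.45 in pC (adjusted p 0.000798) relative to H. Ppib, the cyclophilin of the prolyl 3-hydroxylase complex, fell by 1.17 ± 0.40 (adjusted p 0.0278) and by 1.55 ± 0.43 (adjusted p 0.0100). Mia2 and Mia3, which load large cargo such as procollagen at exit sites, fell in HpC by 1.78 ± 0.21 and 1.59 ± 0.20 (adjusted p 4.41e-05 and 6.81e-05). The HpC calls ended for P3h1 without HpC2, HpC4, H1 or H2 and for Ppib without HpC3, HpC4, H1 or H2, and the pC call of Tmem38b without HpC4, pC1, pC2 or any 1 H library. A list of 14 general endoplasmic reticulum chaperones was lower in the same direction, 13 of 14 in HpC and all 14 in pC. Beside this, 29.2% and 28.6% of all tested genes were lower. On the deposited TPM none of P4hb, P3h1, Ppib, Mia2 and Mia3 was called between HpC and H, and P3h1 was at 0.21. Between pC and H, P4hb was still called there, at -0.94 (adjusted p 0.0209). P3h1, Ppib, Mia2, Mia3 and Tmem38b were not called, and Colgalt1 was at 0.15 (adjusted p 0.710). Quantile normalisation also ended the HpC calls of P4hb, P3h1, Ppib and Mia2, with adjusted p from 0.0785 to 0.563, while that of Mia3 held. In pC it ended those of Ppib, Mia2 and Tmem38b. P3h1 further lost its HpC call with median of ratios scaling (adjusted p 0.0557). With protein-coding transcripts only, P3h1 was called in neither HpC nor pC. On the deposited TPM 83.3% of all calls between HpC and H were higher, against 51.2% with scaling. Between pC and H the shares were 88.2% and 52.1%, and between HpC and pC 26.1% and 43.8%.

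**Figure D4:**
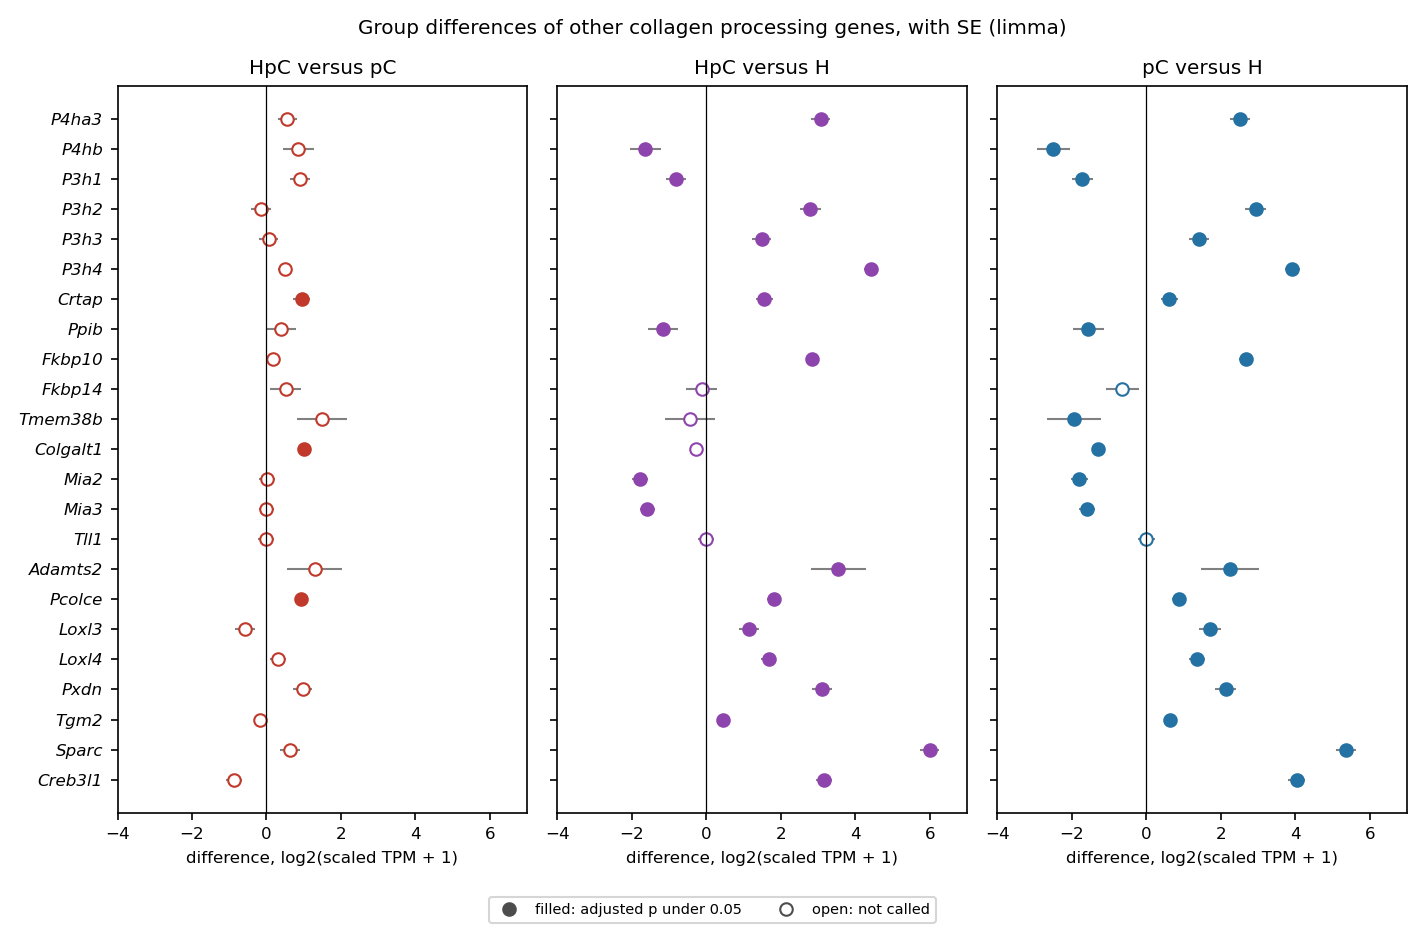
Differences of the 23 tested genes of the wider list in log2(scaled TPM + 1), with the SE as bars, in the same 3 comparisons. Filled points have an adjusted p under 0.05. In the left panel Crtap, Colgalt1 and Pcolce are filled, and in the other panels most points are filled, on both sides of 0.

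The substrates of these enzymes were next set beside them. Of 11 fibrillar collagen genes 7 were tested, and 2 were higher in HpC than in pC, none lower, with a median of 1.18. Of all tested genes 1.99% were higher and 2.55% lower in this comparison. Col3a1 was at 11.7, 4.86, 7.93 and 6.15 scaled TPM in HpC and 2.66, 2.50 and 2.87 in pC, a difference of 1.18 ± 0.24 (adjusted p 0.0219). Col5a1 was at 1.57 to 4.59 in HpC and 0.751 to 0.976 in pC, a difference of 1.10 ± 0.25 (adjusted p 0.0359). Neither overlapped between the groups, but the Col3a1 call ended in 7 of 21 alternatives, among them those without HpC3 or any 1 pC library, and the Col5a1 call in 14 of 20, ending without any 1 library but HpC2. The chains of collagen I missed the threshold, Col1a1 at 1.67 ± 0.42 (adjusted p 0.0546) and Col1a2 at 1.33 ± 0.34 (adjusted p 0.0575). Col1a1 was at 11.7, 4.23, 8.05 and 8.30 in HpC and 1.50, 2.70 and 1.16 in pC, again without overlap. Both were called without HpC2 (adjusted p 0.0293 and 0.0258), Col1a1 also without H3 and Col1a2 also without HpC4. Of the 8 basement membrane collagen genes none was called between HpC and pC, which for so short a list lies near the share of all genes. Col4a1 was at 25.0 to 48.3 in HpC and 17.9 to 25.5 in pC (0.80 ± 0.24, adjusted p 0.109), and Col4a2 at 27.0 to 54.1 and 19.2 to 30.5 (0.82 ± 0.26, adjusted p 0.115). Without HpC2 both were called, at 1.03 and 1.07. None of 5 tested elastic fibre genes was called between HpC and pC (median 0.06). All 5 were higher in HpC than in H and 3 were higher in pC than in H, beside 30.7% and 31.1% of all tested genes. The 12 listed elastic fibre genes summed to 67.1 to 71.4 in HpC, below every pC library (74.5 to 179.9). Of the 12, 3 were at 1 scaled TPM or more in every HpC library and 3 in every pC library.

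Lists of genes that respond to signals known to act on collagen enzymes were also counted. Of all tested genes 4.54% were called between HpC and pC, 1.99% higher and 2.55% lower, so a short list with no call lies near that share. None of 15 hypoxia-responsive genes was called between HpC and pC (median 0.39). Of 12 TGF-beta responsive genes 3 were higher in HpC and none lower (median 0.68). Among them were Tgfbi, a matrix protein, by 1.46 ± 0.34 (adjusted p 0.0367), and Ltbp2, a microfibril protein, by 2.58 ± 0.46 (adjusted p 0.0125). The Tgfbi call held in 9 of 21 alternatives and ended without any 1 of HpC1, HpC2, HpC3, pC1, pC2, pC3, H2 or H3, and that of Ltbp2 ended without pC2 (adjusted p 0.0601). Serpinh1 is itself heat-inducible, and of 10 heat shock genes 1 was higher, Hspb1 at 2.06 ± 0.42 (adjusted p 0.0225), and the call ended without any 1 pC library. None of the 14 general endoplasmic reticulum chaperones was called between HpC and pC (median 0.56).

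Markers of other liver cell types were read beside Loxl2, since fibroblasts and mesothelium also make collagen crosslinking enzymes. For the counts of calls in these lists, 1.99% of all tested genes were higher in HpC than in pC and 2.55% lower. Of 18 stellate cell and fibroblast markers 15 were tested, and 1 was higher in HpC (Col3a1) and none lower. The 15 listed markers other than the 3 collagens summed to 103.9, 34.9, 64.4 and 46.5 scaled TPM in HpC and to 55.2, 67.8 and 58.5 in pC. None of them was at 0 in any cholangiocyte library. HpC2 and HpC4 lay below every pC library in this sum, and Loxl2 was at 5.75 and 6.19 in these libraries. With the 3 collagens included, the sums were 134.8, 46.6, 87.8 and 64.1 in HpC and 60.2, 75.1 and 63.6 in pC. HpC2 was then below every pC library and HpC4 was not. The median difference of the 15 tested markers between HpC and pC was 0.53. The part of stellate cell and fibroblast RNA in the Loxl2 difference was not tested. Of 8 mesothelial markers 6 were tested, and 3 were higher in HpC: Msln by 1.77 ± 0.37 (adjusted p 0.0245), Upk1b by 1.69 ± 0.19 (adjusted p 0.00122) and Wt1 by 1.11 ± 0.25 (adjusted p 0.0345). Gpm6a was lower, by -1.28 ± 0.24 (adjusted p 0.0143). Leaving out 1 library ended the call of Msln for HpC3, pC1 or pC2, of Gpm6a for pC1 or pC2 and of Wt1 for HpC3, HpC4, any 1 pC library, H2 or H3. The 7 mesothelial markers other than Krt14, which the squamous list also holds, summed to 33.5, 36.8, 49.5 and 54.8 in HpC and to 31.2, 24.3 and 27.0 in pC, without overlap. The part of mesothelial RNA in the Loxl2 difference was not tested. Endothelial markers (7 of 8 tested) and leukocyte markers (4 of 9 tested) gave no call between HpC and pC. The endothelial sums were 8.14 to 18.2 in HpC and 9.01 to 14.9 in pC, and the leukocyte sums 14.3 to 35.5 and 22.5 to 24.9.

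**Figure D5:**
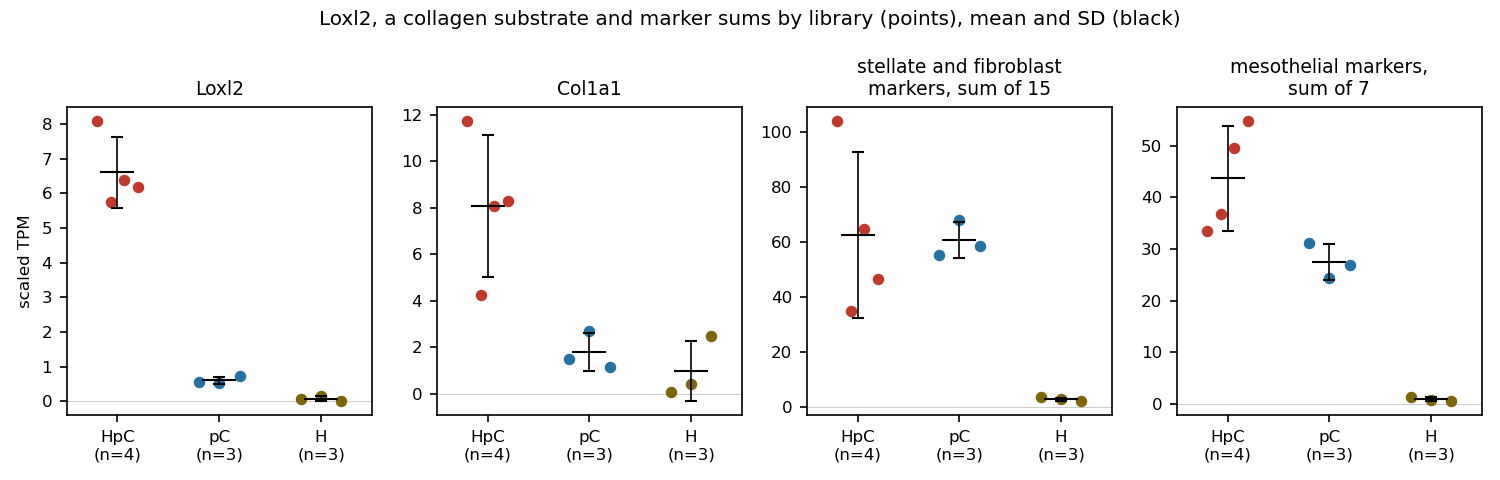
Scaled TPM (vertical axes) of Loxl2, of Col1a1 and of the sums of 15 stellate cell and fibroblast markers and 7 mesothelial markers, in 4 HpC, 3 pC and 3 H libraries. Points are libraries and black lines the mean and SD. HpC and pC overlap in the stellate cell and fibroblast sum and do not overlap in the other panels.

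For the 3 tested members with the widest spread over the libraries, the genes with the most similar profiles were named by Pearson's r of log2(scaled TPM + 1) over the 10 libraries. These r values are descriptions, since the libraries of a group are alike and the profiles follow the groups. For Serpinh1 they were Cd24a (0.998), Tmsb4x (0.998) and Rcn1 (0.997), all at or below 1.97 scaled TPM in H. For Loxl2 they were Slc6a20a (0.990), Rasgrp3 (0.989) and Olfml2b (0.989). Olfml2b was at 1.54 to 3.08 in HpC, 0.1002 to 0.348 in pC and 0 in H. For Plod2 they were Inhbb (0.996), Cacna1a (0.995) and Ggps1 (0.995). Inhbb was at 1.86 to 3.58 in HpC, 1.99 to 2.75 in pC and at most 0.0307 in H.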

How the data were processed

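The authors deposited 1 table per library of TPM for 85276 Ensembl transcripts, per the file headers. The authors named kallisto, DESeq and the mm10 build, without versions or roles, per the submitters' processing notes. Each library's TPM sums to the same total, so depth is unknown and no count test was possible. TPM was summed per gene through GENCODE M21 (81927 transcripts matched, 3349 did not and held 4.22% to 9.06% of TPM). Genes at 1 TPM or more in at least 3 libraries were kept. TPM was scaled by an unweighted trimmed mean of log ratios (30% of ratios and 5% of levels trimmed at each end). Differences were tested by limma 3.58.1 in R 4.3.3, with its trend option, on log2(scaled TPM + 1), computed from the deposited TPM, of all 10 libraries, one coefficient per group, with Benjamini-Hochberg adjustment at 5%; the script was tested on simulated data. Fold changes on this scale understate those of low genes. Overlapping genes, near-identical copies and isoforms can share reads of 50 bases.

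The members and lists were chosen with earlier results of these data known. Named are all members, genes of the wider list called in any comparison, genes of other lists called between HpC and pC, 5 collagen chains and, for 3 members, the 3 genes of highest r. Rbpj, Onecut1, Epcam, and the uncalled members of lists given with values were named beside this rule, after their values were seen. Alternatives were the deposited TPM, median of ratios scaling, quantile normalisation, a pseudocount of 0.1, no filter, a filter at 5 TPM, protein-coding transcripts only, a replicate block, library weights, only the 2 groups compared, and leaving out libraries. Sequences and motif windows are from GRCm38 and RefSeq. Some genes that the rule would name are not reported here.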

Additional observations from a re-analysis of the deposited data

Results flagged for a closer look

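Among 33 genes of the collagen lists examined for 1 library standing apart within the 4 HpC libraries, 3 were picked out by Dixon's criterion, which chance meets in about 1 of 20 groups. None is a member. Mia3 in HpC1 was at 37.1 scaled TPM, with the other HpC libraries at 22.3 to 23.0. Pxdn in HpC2 was at 4.97, with the others at 9.65 to 10.3. Tgm2 in HpC2 was at 70.6, with the others at 98.1 to 101. Pancreatic acinar genes held 19.7% of the TPM of HpC1 and 0.195% of that of pC3, and squamous epithelial genes held 4.62% of that of HpC2.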

How the results depend on the processing

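Without read numbers no counting error could be given. The number of genes called between HpC and pC was 671, and it was 1797 with library weights, 393 with only the 2 groups fitted and 271 to 794 when 1 library was left out, lowest without pC2 (330 without pC1, 415 without HpC3, 443 without pC3). Members called higher between HpC and pC were 2 with library weights. Members lower than H on the deposited TPM were 1 for HpC and 0 for pC. Members higher in pC than in H were 3 under quantile normalisation and 3 to 5 when 1 library was left out. Replicate numbers did not pair the libraries: the correlation of deviations was -0.0458 to 0.0839 for 9 same-numbered pairs and -0.184 to 0.167 for 24 others. The replicate block gave 573, 8184 and 8697 calls for HpC versus pC, HpC versus H and pC versus H. Members that were not called between HpC and pC changed sign on the deposited TPM (Serpinh1 -0.23, P4ha1 -0.30, P4ha2 -0.28, Plod1 -0.26, Plod2 -0.29, Plod3 -0.34), beside a median of all genes of -0.36. P4ha1 was also at -0.033 with library weights and -0.000768 without HpC1 and HpC2, and Plod2 at -0.066 under the replicate block and Plod3 at -0.15 with protein-coding transcripts. With 1 library left out, P4ha2 ran from -0.15 (without pC1) to 0.47, Plod2 from -0.065 (without HpC4; -0.036 without pC2) to 0.30 and Plod3 from -0.021 (without HpC1) to 0.18. Against H, sign changes were P3h1 at 0.21 and Colgalt1 at 0.78 for HpC on the deposited TPM, Colgalt1 at 0.00847 for HpC under quantile normalisation, Colgalt1 at 0.15 for pC on the deposited TPM, and, for pC under quantile normalisation, Loxl2 at -0.20 and Col1a1 at -0.00600. The causes were not tested.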
